A study of Mus musculus with 12 samples.

Results

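The genes described here are 10 surface and progenitor markers of oligodendrocyte precursor cells (OPCs), namely *Cspg4*, *Cspg5*, *Ptprz1*, *Lingo1*, *Gpr17*, *Lhfpl3*, *Pcdh15*, *Vcan*, *Bcan* and *Tnr*. They were taken by symbol, from a list chosen with earlier results of these data known. All 10 were found among 45563 symbols and among the 18081 genes that passed the filter on low values. RNA was sequenced from OPCs of WT C57BL/6 mice and of mice with a germline deletion of TNFR2, a receptor for TNF, and the labels give the strain of all libraries as C57BL/6. Cells from the cortices of pups, of postnatal days 2 to 5 by the labels, were bound to anti-PDGFRα beads and grown with PDGF-AA and FGF2, and the methods give a later first day. After 3 days in culture they received TNF, IFNγ and IL1β at 25 ng/mL each for 3 h (stimulated, St) or the PBS vehicle (non-stimulated, NS). The 12 libraries form 4 groups of 3, WT NS, WT St, TNFR2-/- NS and TNFR2-/- St, with replicates 2, 3 and 4 for WT and 2, 4 and 5 for TNFR2-/- cells.

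OPCs are the dividing cells that give rise to myelinating oligodendrocytes, and they carry a coat of chondroitin sulfate proteoglycans. *Cspg4* encodes NG2, *Cspg5* neuroglycan C and *Ptprz1* a receptor phosphatase that bears chondroitin sulfate chains and binds pleiotrophin. *Vcan* and *Bcan* encode versican and brevican, secreted lecticans that bind hyaluronan, and *Tnr* encodes tenascin-R, which links lecticans. *Lingo1* encodes a membrane partner of the Nogo receptor that restrains oligodendrocyte differentiation, *Gpr17* is a G protein-coupled receptor of OPCs that have begun to differentiate, *Lhfpl3* encodes a membrane protein of the LHFPL family, and *Pcdh15* encodes a protocadherin known from the tip links of hair cells.

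*Cspg4* (ENSMUSG00000032911) and *Lingo1* (ENSMUSG00000049556) had lower values in St than in NS libraries of both genotypes, and *Pcdh15* (ENSMUSG00000052613) was the gene furthest below WT in TNFR2-/- NS libraries, so the sequence upstream of their RefSeq start sites is shown. The set of RefSeq upstream sequences used held 8 of the genes and had no entry for *Cspg5* or *Gpr17*. It gave 9 windows of 250 bases on GRCm38.p6, since *Lingo1* has 2 start sites in it. The *Pcdh15* window and the first *Lingo1* window belong to start sites inside the annotated genes. These genes begin further upstream, *Pcdh15* at 73099342 and *Lingo1*, on the minus strand, at 56796468. From each window only the stretch outside annotated exons is printed, 5′ to 3′ along the gene. Capitals mark matches to the motifs searched on both strands, which were GAS (TTCNNNGAA), AP-1 (TGANTCA), the E-box (CAGNTG), CRE (TGACGTCA) and the consensus sequences of ISRE and NF-kB. No matches of different motifs overlapped in these stretches.
Cspg4, chr9:56864854-56865032, plus strand: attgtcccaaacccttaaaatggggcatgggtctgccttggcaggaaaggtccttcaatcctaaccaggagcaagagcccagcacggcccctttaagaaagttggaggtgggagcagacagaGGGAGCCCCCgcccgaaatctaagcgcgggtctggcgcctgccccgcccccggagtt
Lingo1, chr9:56635649-56635898, minus strand: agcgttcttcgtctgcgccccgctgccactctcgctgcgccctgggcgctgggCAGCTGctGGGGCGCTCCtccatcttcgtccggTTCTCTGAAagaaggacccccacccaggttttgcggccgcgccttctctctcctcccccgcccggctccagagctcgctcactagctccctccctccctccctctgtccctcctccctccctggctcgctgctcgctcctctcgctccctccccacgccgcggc
Lingo1, chr9:56796469-56796560, minus strand: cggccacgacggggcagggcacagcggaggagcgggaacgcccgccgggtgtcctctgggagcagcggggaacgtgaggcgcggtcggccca
Pcdh15, chr10:73821617-73821866, plus strand: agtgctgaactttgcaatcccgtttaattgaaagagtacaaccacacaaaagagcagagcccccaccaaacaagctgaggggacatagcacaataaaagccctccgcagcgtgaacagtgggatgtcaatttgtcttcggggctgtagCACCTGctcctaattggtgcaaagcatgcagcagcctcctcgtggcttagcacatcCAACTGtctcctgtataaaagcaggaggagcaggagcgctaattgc

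The NF-kB consensus matched 3 of the 9 windows and 7.251% of all 32851 windows of the same length. Counted from the RefSeq start, the matches began at position -128 for *Cspg4*, -189 for the first *Lingo1* window and -45 for *Lhfpl3*, whose window lies wholly within an exon annotated on the other strand and is not printed. GAS matched 1 window, the first of *Lingo1* from position -164 to -156, and 7.02% of all windows. The second *Lingo1* window had no match to any of the motifs. The E-box matched the windows of *Lhfpl3*, *Lingo1*, *Pcdh15* and *Vcan* and 44.818% of all windows. ISRE, AP-1 and CRE matched 0 of the 9 windows, against 2.977%, 6.749% and 1.546% of all. These matches describe letters and not bound sites. The 9 windows held 46.8% to 72.8% G and C, against a median of 52.4% over all windows.

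Library totals ranged from 26886878 to 30335265 read pairs, recovered from the FPKM, and each of the 10 genes had at least 851 reads in every library. Other OPC markers (8 genes, among them *Pdgfra*, *Olig1* and *Olig2*) summed to 2609 to 4157 RPM, reads divided by the library total and set on a scale of 1000000 reads, and all 8 were above 0 in every library. Microglia markers were near 0 at 0.7439 to 1.932 RPM for 10 genes. Astrocyte markers (10 genes) summed to 2010 to 2433 in WT and to 2992 to 4688 in TNFR2-/- libraries, with no overlap. *Tnfrsf1b*, which encodes TNFR2, went against the labels, with 0.138 to 0.248 FPKM in WT NS and 2.17 to 3.54 FPKM in TNFR2-/- NS libraries. St libraries had 0.629 to 1.49 FPKM in WT and 2.91 to 3.64 FPKM in TNFR2-/- cells. Which part of the gene these reads came from, inside or outside the deleted part, was not tested. TNFR2-/- below therefore means the libraries labelled so, and every direction between genotypes rests on those labels. Both libraries of TNFR2-/- culture 5 stood apart in several of the genes described here, and differences between genotypes that changed most without them are given both ways. In bulk RNA, fewer cells of a type and less RNA per cell cannot be told apart.

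Together the 10 markers took up 6963.0 to 9293.5 RPM in the 12 libraries, and *Ptprz1* alone held 43.64% to 59.24% of those reads. The deposited FPKM cannot be compared between genes, because the number of bases each gene was divided by is not its annotated exon length (98 bases for *Cspg4* against 11931, and 7726 for *Gpr17* against 5195). Levels between genes were therefore set per kilobase of annotated exon, counted as the union of the exons of all annotated transcripts. On that scale WT NS libraries had 309 ± 31.8 RPM per kilobase for *Ptprz1*, 214 ± 11.8 for *Bcan* and 203 ± 28.6 for *Lhfpl3* (mean ± SD, n = 3). *Ptprz1* was above *Bcan* in every WT NS library, whereas the ranges of *Bcan* and *Lhfpl3* overlapped.

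A middle set followed in WT NS cells, with *Tnr* at 61.0 ± 8.31, *Gpr17* at 59.3 ± 14.3 and *Cspg5* at 58.4 ± 6.06 RPM per kilobase, and the ranges of these neighbors overlapped. *Cspg4* came next at 37.9 ± 3.88, followed by *Vcan* at 14.7 ± 0.610, *Lingo1* at 13.2 ± 1.08 and *Pcdh15* at 8.58 ± 1.10. From *Cspg5* downward the ranges of neighbors in this order did not overlap. The order depends on the exon length used, which was 23773 bases for *Pcdh15* and 4715 for *Lingo1*. Before division by length *Pcdh15* was above *Lingo1*, with WT NS means of 204 and 62.1 RPM. In WT St libraries the ranges of *Lingo1* (8.26 ± 0.280) and *Pcdh15* (8.06 ± 1.05) overlapped, as did those of *Gpr17* (31.1 ± 12.7) and *Cspg4* (23.9 ± 1.91).

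**Figure D1:**
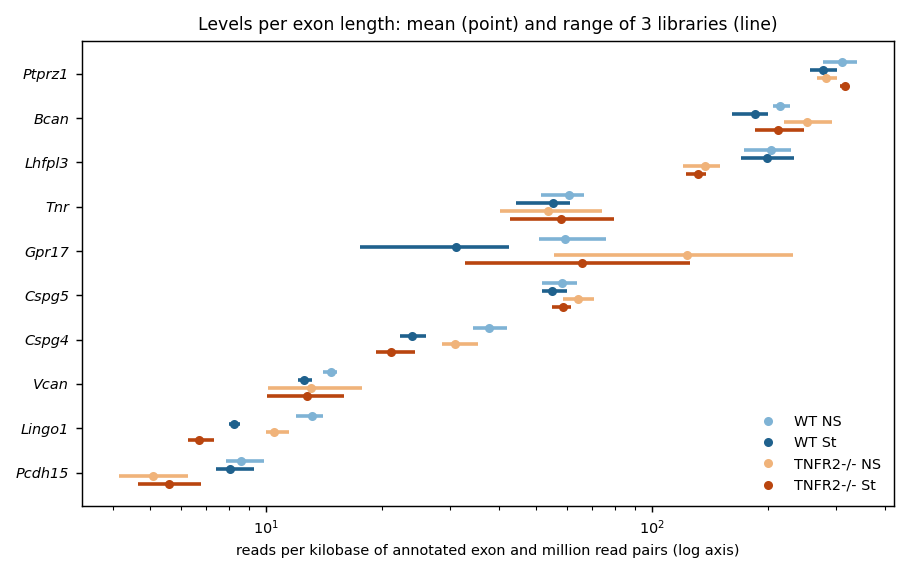
Levels of the 10 markers in RPM per kilobase of annotated exon, on a log axis, with 1 row per gene. Points are means and lines the range of 3 libraries in WT NS, WT St, TNFR2-/- NS and TNFR2-/- St cells, and the genes span from 8.58 (*Pcdh15*) to 309 (*Ptprz1*) in WT NS libraries, with the widest lines for *Gpr17*.

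Differences between groups were tested on log2(FPKM + 0.5) with limma over all 12 libraries and adjusted by the Benjamini-Hochberg method over the 18081 genes. A gene passed the test at an adjusted p of at most 0.05, and it was called where the difference was also at least 1.5-fold. Fold changes are log2 values ± SE on this scale, with 3 libraries per group.

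The response of WT OPCs to the cytokines was compared first. *Cspg4* and *Lingo1* fell in WT St cells, to 0.632 and 0.629 of their WT NS levels. All 10 markers had lower means in WT St than in WT NS libraries. *Lhfpl3* kept this sign in 20 of 23 alternative fits, turning with median-of-ratios scaling among others, and *Pcdh15* and *Tnr* kept it in 22 each. The median log2 fold change was -0.185 against -0.0547 over all genes tested, and 2 of the 10 were called lower. Of all genes 2.95% were called lower and 8.36% passed the test in that direction. The St and NS groups did not overlap for 5 of the 10, all with lower St values, and for 24% of all genes in that direction.

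*Cspg4*, the NG2 proteoglycan that marks OPCs and also mural cells, had 4549.6, 5109 and 4169 FPKM in WT NS replicates 2, 3 and 4. The St libraries of the same replicates had 2711, 3166 and 2849.8 FPKM. Every St value lay below every NS value, and the gene fell by 0.66 ± 0.12 (adjusted p = 0.00332). Summed markers of mural cells and fibroblasts were at 255 to 872 RPM in WT NS and at 325 to 792 in WT St libraries, so their ranges overlapped. *Acta2* made up most of these sums, with means of 510 and 534.5 RPM. *Pdgfrb*, on the same list, had 18.9, 11.8 and 27.3 FPKM in WT NS libraries. Its WT St values were 11.3, 4.04 and 10.3 FPKM, without overlap, from 16 to 108 reads per library. Of the 8 genes of that list tested, 5 had higher and 3 lower means in WT St libraries, and 0 passed the test in the lower direction.

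*Lingo1*, the inhibitor of differentiation, had 206, 241 and 233 FPKM in WT NS and 141, 147 and 138 FPKM in WT St replicates 2, 3 and 4. The groups did not overlap, and the St libraries lay within 10 FPKM of each other. *Lingo1* fell by 0.67 ± 0.08 (adjusted p = 0.000245), with the smallest adjusted p of the 10 genes.

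*Gpr17*, the receptor of committed precursors, had 34.5, 34.2 and 51.0 FPKM in WT NS and 11.7, 22.3 and 28.7 FPKM in WT St replicates 2, 3 and 4. All 3 St libraries were lower, and the log2 fold change of -0.98 ± 0.59 was the largest of the 10 genes in size but did not pass the test (adjusted p = 0.338). With the culture as a block, which compares St and NS libraries of the same culture, it passed (-0.98 ± 0.20, adjusted p = 0.0112). The share of all genes that passed with the block was not counted, so passes with the block here and below have no such background.

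The secreted matrix genes showed smaller differences in WT cells. *Vcan* had 98.8, 107 and 105 FPKM in NS and 84.7, 92.5 and 87.3 FPKM in St libraries, with no overlap, and *Bcan* had 387, 423 and 383 against 299.7, 371 and 362 FPKM, again with no overlap. Neither passed the test (log2 fold changes of -0.23 ± 0.20 and -0.21 ± 0.13, adjusted p = 0.532 and 0.346). Both passed with the culture as a block (adjusted p = 0.0160 and 0.0222). *Tnr* was at -0.15 ± 0.26 (adjusted p = 0.794), and it did not pass with the block either (adjusted p = 0.232).

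*Ptprz1* was lower in the St library of every WT culture, and the NS and St groups overlapped. It had 2655, 2900.4 and 2358 FPKM in WT NS and 2338, 2569 and 2185 FPKM in WT St libraries. Its log2 fold change was -0.16 ± 0.08 (adjusted p = 0.277, and 0.0501 with the culture as a block). *Cspg5*, *Lhfpl3* and *Pcdh15* differed least, with log2 fold changes of -0.08 ± 0.10, -0.04 ± 0.13 and -0.09 ± 0.18 (adjusted p = 0.677, 0.910 and 0.814). *Lhfpl3* had 455, 604 and 545 FPKM in WT NS and 448, 614 and 504 FPKM in WT St libraries, a nearly complete overlap.

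**Figure D2:**
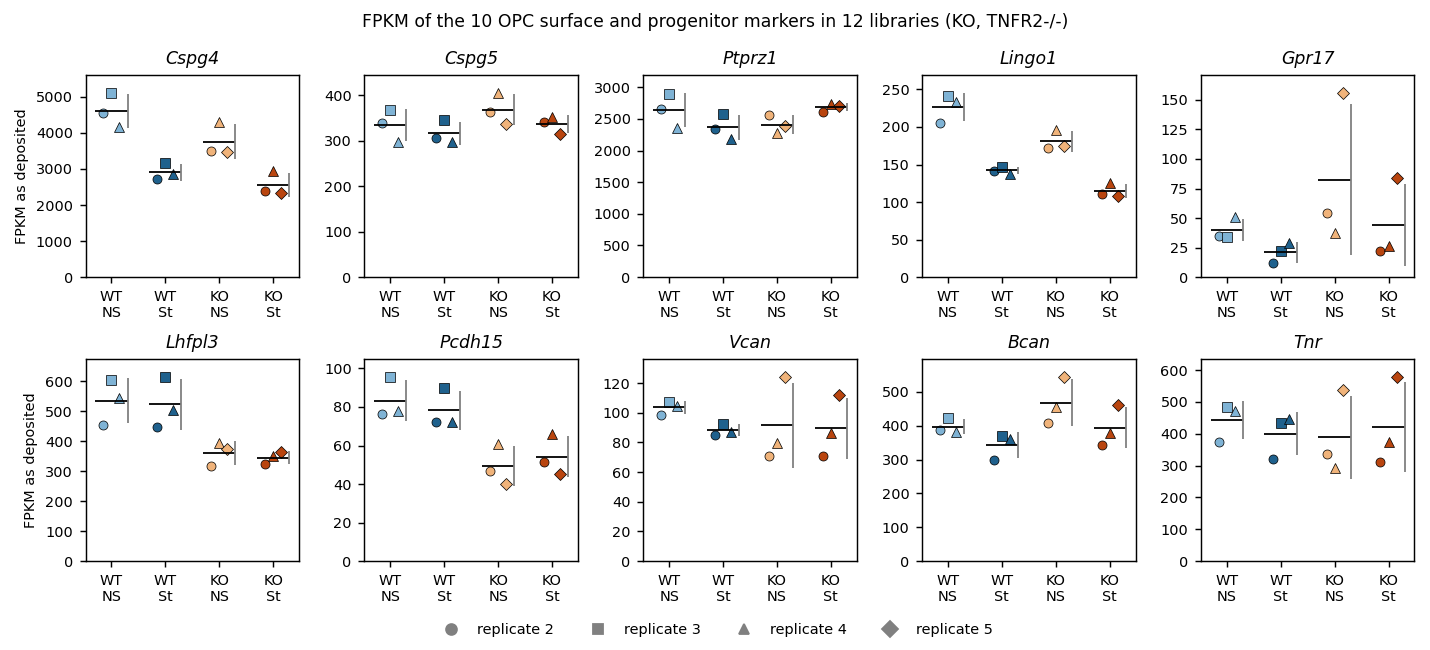
FPKM of each of the 10 markers in the 12 libraries, with 1 panel per gene, the group on the x axis and FPKM on a y axis that starts at 0. Marker shapes give the replicate number, horizontal lines the group mean and vertical lines the mean ± SD (n = 3), and KO stands for TNFR2-/-. *Cspg4* and *Lingo1* are lower in every St library of each genotype, and *Gpr17* replicate 5 reaches 156 FPKM in TNFR2-/- NS cells.

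The same response was then examined in TNFR2-/- cells. *Cspg4* and *Lingo1* fell here too, to 0.682 and 0.637 of their NS levels, and the other 8 markers did not pass the test. Of the 10 genes 1 was called lower, *Lingo1*, against 4.68% of all genes, and 2 passed the test in the lower direction, against 16.3% of all genes. The groups did not overlap for 2 markers with lower and 1 with higher St values, against 24.7% and 12.7% of all genes. The median log2 fold change of the 10 was -0.0942 and that of all genes -0.109.

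*Cspg4* had 3499.97, 4307 and 3472 FPKM in TNFR2-/- NS replicates 2, 4 and 5 and 2403, 2953 and 2339 FPKM in the St libraries of the same cultures. The groups did not overlap. The gene fell by 0.55 ± 0.12 (adjusted p = 0.00662), which was short of the 1.5-fold needed for a call. *Lingo1* had 172, 197 and 174 FPKM in NS and 111, 126 and 108 FPKM in St libraries and fell by 0.65 ± 0.08 (adjusted p = 0.000223). Without culture 5 both still passed (-0.54 ± 0.14, adjusted p = 0.0292, and -0.64 ± 0.10, adjusted p = 0.00271).

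*Gpr17* was lower in the St library of every TNFR2-/- culture, with 54.4, 37.5 and 156 FPKM in NS and 22.0, 26.5 and 84.0 FPKM in St replicates 2, 4 and 5. The spread between cultures exceeded the difference, since culture 5 after stimulation was still above both other cultures before it. The log2 fold change of -0.89 ± 0.59 did not pass the test (adjusted p = 0.310) and passed with the culture as a block (adjusted p = 0.0118).

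In the block fit, for which no share of all genes was counted, 4 further markers passed in TNFR2-/- cells. *Bcan* (-0.25 ± 0.05, adjusted p = 0.00883) and *Cspg5* (-0.13 ± 0.04, adjusted p = 0.0362) were lower in St libraries. *Ptprz1* (0.16 ± 0.05, adjusted p = 0.0349) and *Pcdh15* (0.14 ± 0.03, adjusted p = 0.00943) were higher. Without the block their adjusted p were 0.196, 0.367, 0.201 and 0.615. *Ptprz1* had 2568, 2278 and 2379 FPKM in NS and 2611, 2742 and 2709 FPKM in St libraries, which did not overlap. *Lhfpl3*, *Vcan* and *Tnr* did not pass in either fit, with log2 fold changes of -0.06 ± 0.13, -0.01 ± 0.20 and 0.11 ± 0.26 (adjusted p = 0.783, 0.977 and 0.793).

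**Figure D3:**
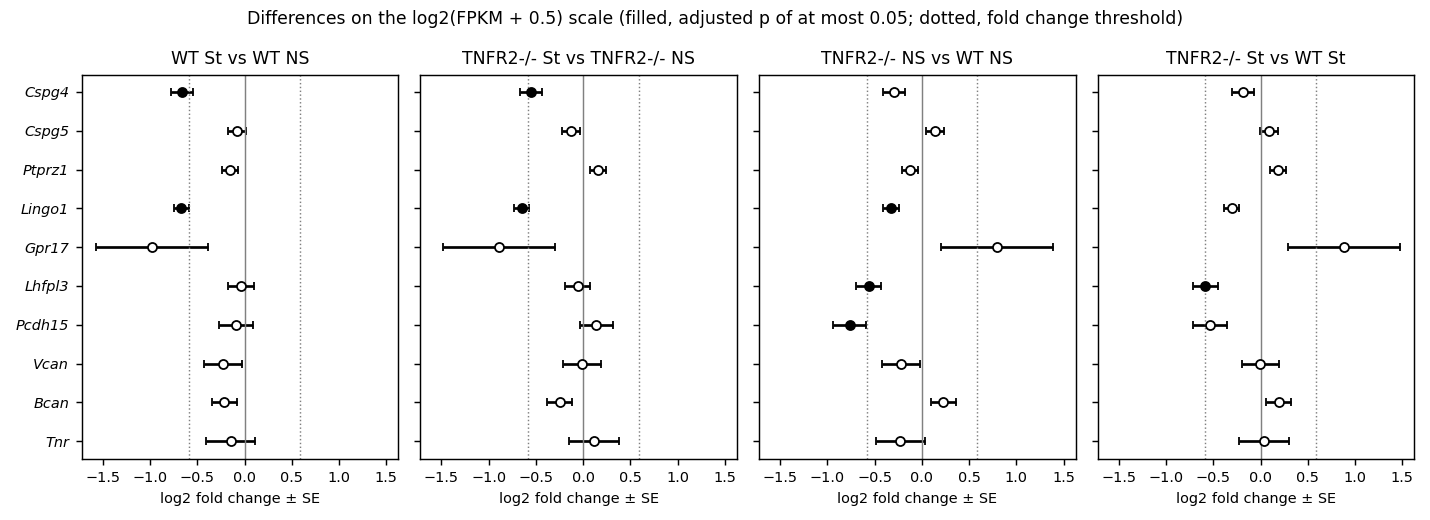
Log2 fold changes (x axis, ± SE) of the 10 markers in the 4 comparisons, 1 panel per comparison and 1 row per gene. Filled points passed at an adjusted p of at most 0.05 and dotted lines mark 1.5-fold. *Cspg4* and *Lingo1* are filled in both stimulation panels, *Lingo1*, *Lhfpl3* and *Pcdh15* in NS cells between genotypes and *Lhfpl3* in St cells between genotypes.

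Within cultures the response was steady for some markers and varied for others. *Cspg4* differed by -0.75 to -0.55 in WT and by -0.57 to -0.54 in TNFR2-/- cultures, and *Lingo1* by -0.76 to -0.54 and -0.68 to -0.63, all St minus NS on the log2 scale. *Cspg4*, *Cspg5*, *Lingo1*, *Gpr17* and *Bcan* were lower in the St library of 6 of 6 cultures. *Gpr17* had the widest range, from -1.52 to -0.60 in WT and from -1.29 to -0.49 in TNFR2-/- cultures.

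For *Ptprz1* and *Pcdh15* the cultures of the genotypes moved in opposite directions. *Ptprz1* differed by -0.18, -0.17 and -0.11 in WT and by 0.02, 0.27 and 0.19 in TNFR2-/- cultures. *Pcdh15* differed by -0.09, -0.09 and -0.10 in WT and by 0.14, 0.12 and 0.16 in TNFR2-/- cultures. The group means kept these directions with both other scalings of the libraries. For *Pcdh15* the direction held in 22 of 23 alternative fits in each genotype, with values up to 0.0120 in WT and down to -0.0094 in TNFR2-/- cells. The exact permutation test (two-sided) gave p = 0.1 for each, which is the smallest p that 3 cultures against 3 allow. Any gene whose cultures separate fully by genotype has this p, and *Vcan* and *Pdgfra* had it too. It therefore adds nothing to the separation itself, and the share of all genes that separate so was not counted. The interaction of genotype and stimulation, which tests whether the response differed, passed for 0 of the 10 genes in limma, against 0.00553% of all genes, and 1 of the 10 had an unadjusted p under 0.05. That gene was *Ptprz1*, at 0.32 ± 0.12 (adjusted p = 0.564, and 0.102 with the block), and *Pcdh15* was at 0.23 ± 0.25 (adjusted p = 0.887, and 0.0968 with the block). With the block and with voom on the recovered reads the count was 0 as well.

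**Figure D4:**
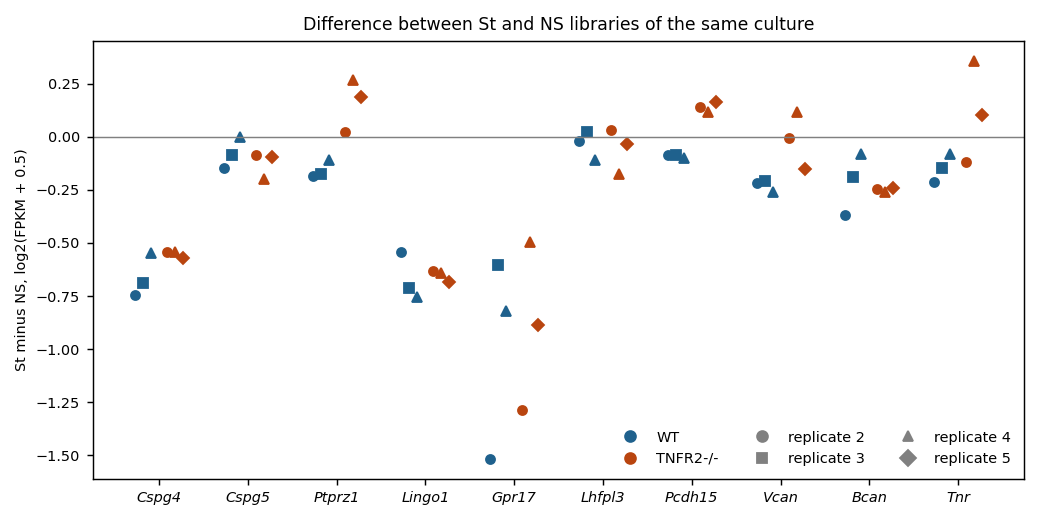
Difference between the St and NS libraries of each culture (y axis, log2(FPKM + 0.5), St minus NS) for the 10 markers on the x axis. Color gives the genotype and shape the replicate number, and the line marks no difference. All 6 cultures are below it for *Cspg4*, *Lingo1*, *Gpr17*, *Bcan* and *Cspg5*, while for *Ptprz1* and *Pcdh15* the WT cultures are below and the TNFR2-/- cultures above it.

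TNFR2-/- and WT cells were next compared without stimulation. *Lhfpl3*, *Pcdh15* and *Lingo1* were lower in TNFR2-/- NS libraries, at 0.677, 0.589 and 0.798 of the WT NS level. These 3 of the 10 genes passed the test in the lower direction, against 4.75% of all genes, and 1 of them, *Pcdh15*, was called, against 1.28% of all genes. None of the 10 passed in the higher direction, against 6.11% of all genes. The same 3 were the markers whose groups did not overlap, and 14.3% of all genes had all TNFR2-/- below all WT values. The median log2 fold change of the 10 was -0.223 and that of all genes 0.0384.

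*Pcdh15*, the protocadherin, had 76.6, 95.6 and 77.7 FPKM in WT NS and 46.8, 60.8 and 40.2 FPKM in TNFR2-/- NS libraries. The log2 fold change was -0.76 ± 0.18 (adjusted p = 0.0279), and the groups did not overlap. The lowest of the 6 libraries was TNFR2-/- replicate 5, and without culture 5 the log2 fold change was -0.63 ± 0.17 (adjusted p = 0.0643).

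*Lhfpl3*, the LHFPL family member, had 455, 604 and 545 FPKM in WT NS and 316, 395 and 373 FPKM in TNFR2-/- NS libraries. Its log2 fold change was -0.56 ± 0.13 (adjusted p = 0.0297), with no overlap, and without culture 5 the value was -0.59 ± 0.16 (adjusted p = 0.0695). *Lingo1* ranged from 206 to 241 FPKM in WT NS and from 172 to 197 FPKM in TNFR2-/- NS libraries (-0.32 ± 0.08, adjusted p = 0.0349), and without culture 5 it was at -0.30 ± 0.09 (adjusted p = 0.0879). The directions of all 3 held without culture 5, and their adjusted p were above 0.05.

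The other markers of NS cells did not pass the test. *Cspg4* was at -0.30 ± 0.12 (adjusted p = 0.126), *Ptprz1* at -0.13 ± 0.08 (adjusted p = 0.345) and *Cspg5* at 0.14 ± 0.10 (adjusted p = 0.364). *Gpr17* was at 0.79 ± 0.59 (adjusted p = 0.402), and without culture 5 at 0.20 ± 0.35 (adjusted p = 0.762). Of the matrix genes, *Bcan* was at 0.23 ± 0.13 (adjusted p = 0.272), *Tnr* at -0.23 ± 0.26 (adjusted p = 0.611) and *Vcan* at -0.22 ± 0.20 (adjusted p = 0.499).

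*Vcan* in NS cells also differed with and without culture 5. It had 98.8, 107 and 105 FPKM in WT NS libraries and 70.9, 79.4 and 124 FPKM in TNFR2-/- NS replicates 2, 4 and 5. Replicate 5 was above all WT NS libraries and the other 2 were below them. Without culture 5 *Vcan* was at -0.46 ± 0.09 and passed the test without reaching 1.5-fold (adjusted p = 0.0389), the only one of the 10 genes to pass. The share of all genes that passed without culture 5 was not counted.

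Astrocyte markers moved with this comparison, as all 10 had higher means in TNFR2-/- NS than in WT NS libraries, with a median log2 fold change of 0.757. *Gja1*, a gap junction gene of astrocytes, was the 1 of them called (0.92 ± 0.24, adjusted p = 0.0370), and without culture 5 it was at 0.68 ± 0.17 (adjusted p = 0.0615) and the median at 0.519. The 10 neuron genes summed to 894.8 to 988.7 RPM in WT NS and to 783.2 to 798.6 in TNFR2-/- NS libraries, with no overlap. *Map2* made up most of these sums, with means of 732 and 619.5 RPM. Of the 10 genes 9 had lower means, of which 2, *Map2* among them, passed the test and 0 were called. All 10 genes of mature oligodendrocytes had higher means in TNFR2-/- NS libraries (median 0.413, and 0.364 without culture 5), and 0 passed the test by limma. The 8 other OPC markers summed to 3635 to 4157 RPM in WT NS and to 3550 to 4153 in TNFR2-/- NS libraries, which overlapped. *Pdgfra*, the receptor used to isolate the cells, had 136, 157 and 116 FPKM in WT NS and 101, 114 and 96.3 FPKM in TNFR2-/- NS libraries (-0.39 ± 0.15, adjusted p = 0.122). Whether the makeup of the cultures had a part in the lower values of *Lhfpl3*, *Pcdh15* and *Lingo1* was not tested.

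TNFR2-/- St cells were compared with WT St cells last. *Lhfpl3* was lower in TNFR2-/- St libraries, at 0.667 of the WT St level, and was the 1 marker of 10 to pass the test and to be called. Of all genes 0.614% were called lower, and 2.75% passed the test in that direction. The median log2 fold change of the 10 was 0.0166, and 5 had lower and 5 higher means. *Vcan* kept its sign in 19 of 23 alternative fits, turning with median-of-ratios scaling among others, and *Tnr* in 20, turning without culture 5 among others. The groups did not overlap for 3 markers with lower and 1 with higher TNFR2-/- values, against 17.3% and 15.4% of all genes.

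*Lhfpl3* had 448, 614 and 504 FPKM in WT St and 323, 349 and 364 FPKM in TNFR2-/- St libraries, with no overlap. Its log2 fold change was -0.59 ± 0.13 (adjusted p = 0.0388), a value just at the 1.5-fold limit, and without culture 5 it was at -0.62 ± 0.16 (adjusted p = 0.0773). The St libraries of each genotype lay close to the NS libraries of that genotype, as the values above for NS cells show.

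*Lingo1* and *Pcdh15* were also lower in every TNFR2-/- St library than in any WT St library. *Lingo1* had 141, 147 and 138 against 111, 126 and 108 FPKM (-0.31 ± 0.08, adjusted p = 0.0549). *Pcdh15* had 72.1, 90.0 and 72.4 against 51.6, 65.9 and 45.2 FPKM (-0.53 ± 0.18, adjusted p = 0.0916). Both missed the threshold, and both passed with the culture as a random block (adjusted p = 0.0435 and 0.0485).

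*Ptprz1* was higher in every TNFR2-/- St library (2611, 2742 and 2709 FPKM) than in any WT St library (2338, 2569 and 2185 FPKM) and did not pass the test (0.19 ± 0.08, adjusted p = 0.188). *Cspg4* was at -0.19 ± 0.12 (adjusted p = 0.343) and *Cspg5* at 0.09 ± 0.10 (adjusted p = 0.584). *Gpr17* was at 0.88 ± 0.59 (adjusted p = 0.365), and without culture 5 at 0.29 ± 0.35 (adjusted p = 0.662). The matrix genes *Vcan*, *Bcan* and *Tnr* were at 0.00 ± 0.20, 0.19 ± 0.13 and 0.04 ± 0.26 (adjusted p = 0.997, 0.375 and 0.947), and without culture 5 at -0.17 ± 0.09, 0.08 ± 0.10 and -0.22 ± 0.17 (adjusted p = 0.294, 0.698 and 0.480).

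Cell type markers moved here too. All 10 astrocyte markers had higher means in TNFR2-/- St libraries, and *Slc1a2* (1.01 ± 0.25, adjusted p = 0.0451) and *Slc1a3* (0.69 ± 0.10, adjusted p = 0.0116), glutamate transporters of astrocytes, were called. Without culture 5 both still passed the test, and *Slc1a3* (0.58 ± 0.07) no longer reached 1.5-fold. Of the neuron genes 9 of 10 had lower means (median -0.119), and of the mature oligodendrocyte genes 7 of 10 had higher means (median 0.167, and 0.0198 without culture 5), and 0 of either list passed the test by limma. *Pdgfra* had 104, 123 and 93.4 FPKM in WT St and 74.0, 80.7 and 57.0 FPKM in TNFR2-/- St libraries and was called lower (-0.60 ± 0.15, adjusted p = 0.0488). Without culture 5 *Pdgfra* was at -0.46 ± 0.15 (adjusted p = 0.115). The part of cell makeup in the *Lhfpl3* value was not tested. The comparisons between genotypes and those of stimulation share libraries, so the values above are set side by side and are not independent of each other.

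Variation within groups was uneven among the markers. TNFR2-/- culture 5 had *Gpr17* 1.18 (NS) and 1.19 (St) above the group mean on the log2 scale, *Tnr* 0.52 and 0.51, *Vcan* 0.48 and 0.34 and *Bcan* 0.23 and 0.23 above it. *Pcdh15* was below the mean by 0.27 and 0.24 in that culture. *Cspg4*, *Cspg5*, *Ptprz1*, *Lingo1* and *Lhfpl3* deviated from the mean by -0.12 to 0.08 in its libraries.

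Genes of committed OPCs and newly formed oligodendrocytes were also high in that culture. Their 15 genes summed to 4436 RPM in TNFR2-/- NS replicate 5, with 2258 to 2312 in the other 2 TNFR2-/- NS libraries. *Enpp6*, a choline phosphodiesterase of newly formed oligodendrocytes, was at 71.6 RPM there against 14.3 and 12.5 in replicates 2 and 4. Astrocyte markers were highest in the same libraries, with 4688 in NS and 4646 in St replicate 5. Of the WT cultures, replicate 4 had the highest *Gpr17* in NS and in St cells (51.0 and 28.7 FPKM) and the highest *Enpp6* (26.6 and 27.0 RPM).

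**Figure D5:**
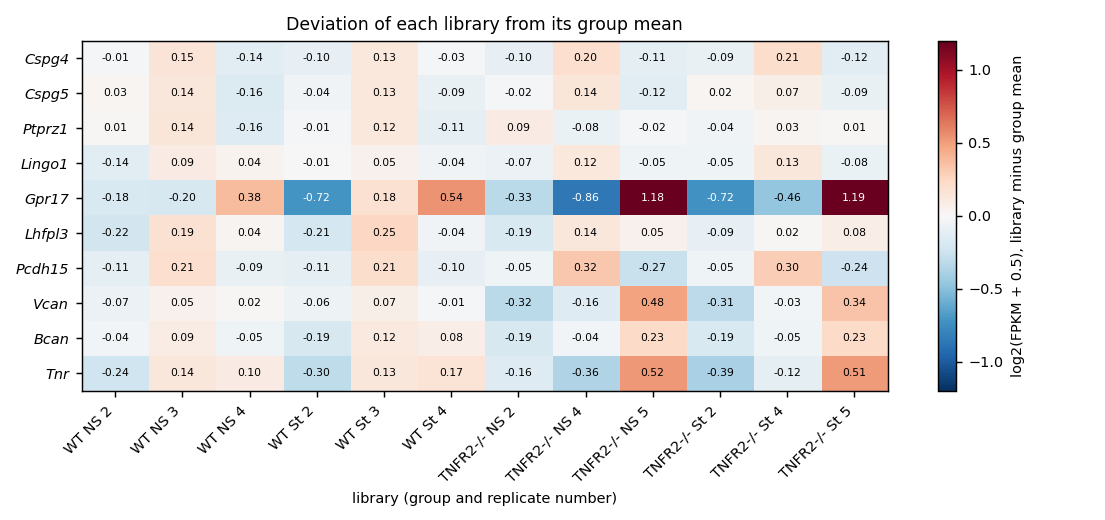
Deviation of each of the 12 libraries (x axis) from the mean of its group for the 10 markers (rows), in log2(FPKM + 0.5), with red above and blue below the mean and the value printed in each cell. *Gpr17* is at 1.18 and 1.19 in both libraries of TNFR2-/- culture 5, the darkest cells, and *Tnr* and *Vcan* are above the mean in the same libraries.

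Among 24 other OPC and progenitor markers, 3 were called lower and 2 higher in WT St cells, against 2.95% and 4.58% of all genes. In TNFR2-/- St cells 4 were called lower and 0 higher, against 4.68% and 5.41%. The 5 calls in WT cells were 3 with no filter on low values or without WT NS replicate 2, 3 or 4 or WT St replicate 3 or 4. The 4 in TNFR2-/- cells were 2 in a fit over the 6 libraries compared and 7 without TNFR2-/- St replicate 5. *Olig2*, the lineage transcription factor, fell by 1.23 ± 0.10 and 1.16 ± 0.10 (adjusted p = 7.72e-06 and 9.43e-06). *Cacng5*, an AMPA receptor auxiliary subunit, rose by 1.16 ± 0.31 in WT cells (adjusted p = 0.0276), and *Sapcd2* fell by 1.10 ± 0.16 in WT and by 1.21 ± 0.16 in TNFR2-/- cells (adjusted p = 0.000665 and 0.000268). *Dll1*, a Notch ligand, fell by 0.78 ± 0.17 in TNFR2-/- cells (adjusted p = 0.00738). *Pdgfra* was at -0.35 ± 0.15 in WT (adjusted p = 0.172, and 0.00583 with the block) and fell by 0.56 ± 0.15 in TNFR2-/- cells (adjusted p = 0.0210, and 0.0730 without culture 5).

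Between genotypes 0 of these 24 were called in NS cells, where 1 in each direction passed the test by limma without reaching 1.5-fold, and in St cells 1 was called higher and 1 lower. *Ednrb*, an endothelin receptor, was higher by 0.64 ± 0.10 (adjusted p = 0.0125), and *Pdgfra* was the gene called lower. The number called lower was 0 without any 1 of the 3 WT St libraries, among other settings, and 3 with the culture as a random block or without TNFR2-/- NS replicate 5.

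Of 15 enzymes that cut lecticans or NG2 and their inhibitors, 6 were called higher in WT St cells, against 4.58% of all genes, and 7 in TNFR2-/- St cells, against 5.41%, with 0 called lower in either. *Adamts15* rose by 4.88 ± 0.25 and 4.20 ± 0.25 (adjusted p = 3.18e-07 and 8.79e-07) and *Adamts8* by 3.11 ± 0.19 and 3.28 ± 0.19 (adjusted p = 1.26e-06 and 7.21e-07) in WT and TNFR2-/- cells, both secreted metalloproteinases. *Timp1*, a metalloproteinase inhibitor, rose by 2.63 ± 0.24 and 2.93 ± 0.24 (adjusted p = 3.05e-05 and 1.01e-05). Between genotypes *Adamts5*, an aggrecanase, was higher in TNFR2-/- St cells by 1.10 ± 0.24 (adjusted p = 0.0327), and so was the inhibitor *Timp3* by 0.89 ± 0.19 (adjusted p = 0.0309, and 0.0655 without culture 5).

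Of 13 other lecticans, link proteins, tenascins and hyaluronan genes, 2 were called higher and 1 lower in WT St cells. The shares of all genes were 4.58% and 2.95%. The counts in TNFR2-/- St cells were 2 and 2, against 5.41% and 4.68% of all genes. *Has2*, a hyaluronan synthase, rose by 4.68 ± 0.23 and 5.59 ± 0.23 (adjusted p = 2e-07 and 5.11e-08), from 3.26 to 4.14 FPKM in WT NS to 101 to 116 FPKM in WT St libraries. *Cd44*, a hyaluronan receptor, rose by 0.78 ± 0.16 and 1.23 ± 0.16 (adjusted p = 0.00598 and 0.000234). *Acan*, the lectican aggrecan, fell by 0.90 ± 0.23 and 0.96 ± 0.23 (adjusted p = 0.0242 and 0.0125, the latter 0.0518 without culture 5). In St cells *Cd44* was higher in TNFR2-/- than in WT libraries by 0.83 ± 0.16 (adjusted p = 0.0227).

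Of 22 genes of chondroitin sulfate chain synthesis 21 were tested. In WT St cells 1 was called higher and 1 lower, against 4.58% and 2.95% of all genes. The counts in TNFR2-/- St cells were 3 higher and 1 lower, against 5.41% and 4.68% of all genes. *Dse*, an epimerase that acts on the chain, rose by 1.40 ± 0.24 and 1.75 ± 0.24 (adjusted p = 0.00257 and 0.000433), and the sulfotransferase *Chst12* fell by 1.17 ± 0.23 and 1.52 ± 0.23 (adjusted p = 0.00574 and 0.000811). *Chst11*, another sulfotransferase, rose by 0.61 ± 0.10 in TNFR2-/- cells (adjusted p = 0.00159). In NS cells the synthase *Chsy3* was lower (-0.67 ± 0.18, adjusted p = 0.0413) and the galactosyltransferase *B3galt6* higher (0.61 ± 0.14, adjusted p = 0.0298) in TNFR2-/- than in WT libraries. Without culture 5 neither passed the test (-0.47 ± 0.13 and 0.56 ± 0.15, adjusted p = 0.0771 and 0.0663).

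Among 24 ligands and partners of the 10 markers, 1 was called higher and 3 lower in WT St cells. The shares of all genes were 4.58% and 2.95%. The counts in TNFR2-/- St cells were 2 higher and 3 lower, against 5.41% and 4.68% of all genes. *Rtn4rl1*, a Nogo receptor homolog, fell by 1.45 ± 0.15 and 1.35 ± 0.15 (adjusted p = 5.86e-05 and 7.51e-05). *Lingo3*, a paralog of *Lingo1*, fell by 1.27 ± 0.14 and 1.08 ± 0.14 (adjusted p = 0.000129 and 0.000314). *Fgf2*, a growth factor that binds NG2, rose by 1.23 ± 0.19 and 1.26 ± 0.19 (adjusted p = 0.00114 and 0.000715). Of 10 genes of the LHFPL family and of tip-link partners of *Pcdh15*, 6 were tested and 0 were called in any comparison by limma, while 1 passed without reaching 1.5-fold, in TNFR2-/- St cells.

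Of the 15 genes of committed OPCs and newly formed oligodendrocytes, the stage at which *Gpr17* is known to peak, 1 was called higher and 1 lower in WT St cells, and 2 higher and 1 lower in TNFR2-/- St cells. Of all genes 4.58% and 2.95% were called higher and lower in WT St cells, and 5.41% and 4.68% in TNFR2-/- St cells. With the culture as a block 2 of the 15 genes were called higher and 3 lower in each genotype. *Rras2*, a small GTPase, rose by 0.83 ± 0.16 and 0.89 ± 0.16 (adjusted p = 0.00423 and 0.00195), and the transcription factor *Mycl* fell by 0.79 ± 0.24 and 1.27 ± 0.24 (adjusted p = 0.0492 and 0.00308). *Nkx6-2*, a homeobox gene of the lineage, rose by 1.15 ± 0.37 in TNFR2-/- cells (adjusted p = 0.0432, and 0.0874 without culture 5). In WT cells *Nkx6-2* was at 1.14 ± 0.37 (adjusted p = 0.0635, and 0.0166 with the block). None of the 15 was called between genotypes in NS or St cells, and the median log2 fold change in NS cells was 0.331 with 14 genes higher, and -0.0629 with 6 higher without culture 5.

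The pattern of each marker over the 12 libraries was set against the 13544 other genes whose mean reached 1 FPKM. Likeness was the root mean square difference of log2 values centered on each gene's mean, so that 0 is an identical pattern. The nearest gene was *Brsk2* for *Cspg4* (0.0839), *Sh2b3* for *Lingo1* (0.0891), *Pogk* for *Ptprz1* (0.0587), *Acyp1* for *Cspg5* (0.0737) and *Zgpat* for *Bcan* (0.0654). *Clgn* was nearest to *Lhfpl3* (0.0881), *Ssh2* to *Pcdh15* (0.0941), *Tspan2* to *Vcan* (0.0855) and *Sema5a* to *Tnr* (0.0985). *Gpr17* had the most distant nearest gene, *Lgi3*, at 0.363.

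*Cspg4* and *Lingo1* are neighbors on chromosome 9 of GRCm38. *Lingo1* lies at chr9:56618475-56796468 on the minus strand and *Cspg4* at chr9:56865033-56899870 on the plus strand. Their outermost annotated starts face each other 68565 bases apart with 2 annotated genes between. Of 21 other genes with at least 1 FPKM within 500000 bases on either side, a region chosen after the values were seen, 16 had lower means in WT St and 18 in TNFR2-/- St libraries. The share of all genes with lower St means was not counted. The 21 genes had median log2 fold changes of -0.074 and -0.25, against -0.0547 and -0.109 over all genes tested. Their values lay between -1.354 and 0.328 in WT and between -1.387 and 0.512 in TNFR2-/- cells. *Snx33* was the lowest of these in both genotypes.

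The other markers lie elsewhere. *Ptprz1* (ENSMUSG00000068748) is at chr6:22875502-23052916 and *Lhfpl3* (ENSMUSG00000106379) at chr5:22746059-23275597, both on the plus strand. *Pcdh15* spans chr10:73099342-74649737 and has 41 annotated transcripts, *Vcan* (ENSMUSG00000021614) is at chr13:89655312-89742509 and *Bcan* (ENSMUSG00000004892) at chr3:87987531-88000230, both on the minus strand. *Tnr* (ENSMUSG00000015829) is at chr1:159523769-159931729 and *Cspg5* (ENSMUSG00000032482) at chr9:110243783-110262576. Exons of *Gpr17* (ENSMUSG00000052229) share 188 bases with *Lims2* on the other strand, those of *Lhfpl3* share 567 with *A930003O13Rik* and those of *Tnr* share 443 with *Gm38039*. The strand used for counting was not stated, so reads there cannot be assigned to 1 gene.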

How the data were processed

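The data were RNAseq values of 12 libraries of WT and TNFR2-/- OPCs in 4 groups of 3, grouped by the sample labels. The labels name Illumina library protocols and the methods a BGISeq-500 platform. Per the labels and methods, the authors used Trim Galore for trimming, STAR for counting on GRCm38 and edgeR for their own tests. The values deposited by the authors were FPKM, in a table of NS and a table of St libraries, which were joined by symbol. Entries that shared a symbol were left out (229 of 45792).

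FPKM were whole multiples of a unit set by each library's total. For 26634 of 26636 genes (those above 0 in several libraries) the reads recovered were whole within 0.002 plus 1e-07 per read. The filter kept genes averaging 0.1 FPKM or more. The test was limma 3.58.1 (R 4.3.3) on log2(FPKM + 0.5), with 4 group means, a mean-dependent prior and two-sided p. The pseudocount understates changes of low values. A call needed an adjusted p of at most 0.05, a 1.5-fold change and an average of 1 FPKM. The filter, pseudocount and limit of 1 FPKM are in deposited FPKM, so they stand for unlike numbers of reads in different genes. Replicates are separate by number, and nothing states that they came from separate litters, so p-values measure the spread between these samples. Depth limits cover counting error only. Annotation came from GENCODE M21 and upstream sequence from RefSeq (GRCm38.p6). Python 3.11.15, numpy 2.4.6, pandas 2.3.3 and matplotlib 3.10.9 were used. The procedure was tested on simulated data. Alternatives covered the pseudocount, filter, scaling, prior, libraries and voom.

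Whether replicate numbers pair libraries was checked with 13554 genes, each centered on its group mean. The correlation was 0.338 to 0.649 for the 6 NS and St pairs of 1 genotype and number, and -0.455 to 0.088 for the 12 pairs of 1 genotype with unlike numbers. For equal numbers in different genotypes it was -0.0779 to 0.204. Numbers therefore pair libraries of a culture within a genotype only. The block was the culture, as a fixed term for stimulation and the interaction and as a random effect (correlation 0.563) between genotypes.

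The 10 markers and all gene lists were chosen with earlier results of these data known. From the list of other OPC markers 1 gene is not reported here. From each list up to 3 called genes of largest fold change per comparison were named, with *Pdgfra*, *Tnfrsf1b* and the gene nearest in pattern to each marker. *Enpp6*, *Snx33*, *Acta2*, *Pdgfrb*, *Map2* and the neighbors on chromosome 9 were chosen after their values were seen. Lists of neurons, endothelial cells and mature oligodendrocytes were counted too. In WT St cells 1, 0 and 0 of their genes were called higher and 1, 0 and 0 lower. In TNFR2-/- St cells 1, 1 and 0 were called higher and 1, 0 and 0 lower. Of all genes 4.58% and 2.95% were called higher and lower in WT St cells, and 5.41% and 4.68% in TNFR2-/- St cells. Between genotypes 1 endothelial gene was called lower in St cells, against 0.614% of all genes, and no other gene of these lists. Mural and fibroblast genes had 1 called higher in WT St cells and 1 higher and 1 lower in TNFR2-/- St cells.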

Additional observations from a re-analysis of the deposited data

How the results depend on the processing

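The lower values of *Cspg4* and *Lingo1* in St cells kept their direction and their adjusted p of at most 0.05 in all 23 alternatives that refit the model in each genotype, with log2 fold changes of -0.76 to -0.59 and -0.74 to -0.61 in WT and of -0.66 to -0.44 and -0.72 to -0.54 in TNFR2-/- cells. The genotype differences were less stable. In NS cells 1 marker was called, against 0 with no filter on low values, 0 in a fit over the 6 libraries compared, 2 with median-of-ratios scaling and 3 by adjusted p alone. With each library left out the count was 0 to 2, being 0 without WT NS replicate 3 or 4 or TNFR2-/- NS replicate 2 or 5 and 2 without WT NS replicate 2 or TNFR2-/- NS replicate 4. *Lhfpl3* in this comparison had an adjusted p of at most 0.05 in 16 of the alternatives, *Pcdh15* in 16 and *Lingo1* in 15.

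In TNFR2-/- St against NS cells 1 marker was called, against 0 with median-of-ratios scaling, 2 with quantile normalization, 2 by adjusted p alone, 2 with the replicate block and 1 to 2 with a library left out, the second being *Cspg4* (without TNFR2-/- NS replicate 2 or 5 or TNFR2-/- St replicate 4). Between St groups 1 was called, against 0 with a pseudocount of 1 FPKM, no filter, either scaling, the 6 libraries alone or a prior without trend, and 0 to 1 with a library left out (0 without WT NS replicate 4, WT St replicate 3 or 4, or TNFR2-/- St replicate 2, 4 or 5). Without TNFR2-/- culture 5, a choice made after the data were seen, 0 were called between genotypes in NS and in St cells. The replicate block made 3 calls in place of 2 in WT St cells and changed no other count of calls among the 10 markers than those given. The cause of these changes was not tested, except that fits with fewer libraries have fewer degrees of freedom. The interaction could not be fitted on 6 libraries. Over the 10 markers, 1092 alternative values kept their side of the threshold, 16 newly passed it and 32 no longer did, and 0 of the differences that passed changed sign. Differences near 0 that had not passed could turn, as *Lhfpl3* and *Vcan* did in TNFR2-/- St against NS cells with median-of-ratios scaling.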
